A study of Mus musculus with 6 samples.

Results

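The TRIM family was examined in abdominal aorta of mice with a knockout of Olfr2 (KO) and of wild type (WT) mice on day 7 of an induced aneurysm, in which the wall of the artery bulges outwards. Members were the genes whose symbol is Trim followed by a number and at most 1 letter, which took 68 of the 54532 genes in the count table. Of these, 10 form a run of neighbouring genes on chromosome 7 (Trim5, Trim6, Trim12a, Trim12c, Trim30a to Trim30d, Trim34a and Trim34b), the chromosome that also carries Olfr2, and 58 lie outside it. KO mice lacked Olfr2, an odorant receptor gene, and the WT mice had it; both genotypes had an induced aneurysm, so no library shows an untreated aorta. There were 3 libraries for each genotype, with 17248918 to 21872027 gene counts. The sources used here do not give strain, age, the way of induction, the kind of knockout allele or whether animals were pooled. A p-value therefore sets the difference between genotypes against a spread between libraries that may be only technical. Olfr2 had 0 counts in all 6 libraries, so its level does not check the labels.

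TRIM proteins share an N-terminal tripartite motif, built of a RING domain, B-box domains and a coiled coil, and most of them attach ubiquitin or related proteins to their targets. The C-terminal part differs between subfamilies and sets what is bound. Members with a SPRY domain, some of them in the chromosome 7 cluster, include rodent relatives of primate TRIM5, which binds the capsid of retroviruses. Several members are known to be induced by interferon. Other members act on chromatin, on striated muscle proteins or on the cytoskeleton. Whole aorta holds smooth muscle, endothelium, fibroblasts and leukocytes, and in such bulk tissue fewer cells of a type and less RNA per cell cannot be told apart.

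Promoter sequences of the cluster are shown because these genes all had lower means in KO and some of them share stretches of sequence there. The RefSeq table of promoters (GRCm38.p6, 250 bases before to 50 after each start) matched 53 of the 68 members by symbol, all 10 of the cluster among them. Each window was searched on both strands for GAAA, any 2 bases and GAAA again, a repeat known from the binding sites of interferon-regulated transcription factors. On the other strand it reads TTTC, any 2 bases and TTTC. For 4 cluster genes on the minus strand, the 120 bases before the start are shown 5′ to 3′ along the gene, with the match in capitals; they cover chr7:104353350-104353469 for Trim12c, chr7:104288107-104288226 for Trim5, chr7:104465194-104465313 for Trim30a and chr7:104507850-104507969 for Trim30d.
Trim12c: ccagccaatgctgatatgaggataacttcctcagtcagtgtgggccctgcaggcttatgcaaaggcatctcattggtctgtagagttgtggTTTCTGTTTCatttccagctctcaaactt
Trim5: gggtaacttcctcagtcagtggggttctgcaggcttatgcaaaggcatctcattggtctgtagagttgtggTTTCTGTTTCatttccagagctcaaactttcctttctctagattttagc
Trim30a: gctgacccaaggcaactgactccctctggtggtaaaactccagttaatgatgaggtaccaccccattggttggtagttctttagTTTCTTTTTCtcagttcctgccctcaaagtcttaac
Trim30d: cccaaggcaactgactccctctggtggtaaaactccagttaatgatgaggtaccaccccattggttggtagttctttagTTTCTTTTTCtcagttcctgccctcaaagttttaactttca

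These 4 printed sequences fell into pairs. Trim30a and Trim30d shared a run of 109 identical bases within the printed stretch, and Trim12c and Trim5 shared a run of 63. Across the pairs the longest shared run was 7 bases. The match began 29 bases before the start in Trim12c, 49 in Trim5, 36 in Trim30a and 41 in Trim30d. Trim12a and Trim34a had a match that began at transcribed base 11. The bases before the start of Trim12a, not printed, end in the same sequence that opens the printed stretch of Trim5. In all, 6 of the 10 cluster genes (60.0%) held a match in at least 1 window, as did 3 of the 43 other matched members (6.98%) and 1079 of all 27025 genes in the RefSeq table (3.99%). Counted by window, 3.44% of the 32851 windows held one. Trim30b, Trim30c, Trim34b and Trim6 had none. Outside the cluster the matches were in Trim21, Trim26 and 1 of the 5 windows of Trim2. A match describes letters in a window and not a bound site.

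Most members were present in the aorta. Of the 68, 60 had at least 1 count and 46 passed the filter on low counts and were tested, which were all 10 cluster genes and 36 others. Trim31, Trim38, Trim40, Trim42, Trim50, Trim52, Trim60 and Trim61 had 0 counts in every library, and 3 counts, the limit that a count of 0 allows, correspond to 0.137 to 0.174 CPM (counts scaled to library size) by library. The other 14 had at most 44 counts over all 6 libraries and were not tested. The library sizes were adjusted by TMM, a factor that equalises libraries over most genes.

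Compared per kb of exon, Trim30a had the highest mean of the family, at 57.9 ± 10.3 CPM per kb in KO and 98.02 ± 22.3 in WT (SD, n = 3 each). Its range over the 6 libraries, 46.3 to 119.7, did not overlap that of Trim28, the next gene, but did overlap that of Trim30d, which reached 51.8. Below it came Trim28 at a mean of 34.4 CPM per kb over all libraries, Trim30d at 34.2, Trim25 at 32.1, Trim35 at 25.3, Trim47 at 23.8 and Trim12c at 23.2. The ranges of neighbours in that order overlapped from Trim28 downwards to Trim12c. The 10 cluster genes together made up 25.6%, 29.7% and 28.8% of the CPM of all members in the KO libraries, and 37.8%, 41.5% and 30.9% in the WT libraries. All KO shares lay below all WT shares, and WT replicate 3 was close to the highest KO library.

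All 10 cluster genes had a lower mean in KO, but none passed the adjusted threshold of edgeR's quasi-likelihood test. They lie between bases 104218793 and 104507849 of chromosome 7 (GRCm38), a span of 289 kb, and all 10 had a negative log2 fold change of KO against WT, from -0.79 to -0.24 with a median of -0.50. Of all 16237 tested genes, 48.8% had a fold change below 0 and the median was 0.006. In that test 6 of the 10 cluster genes (60.0%) had an unadjusted p under 0.05 in the direction of lower KO, where 6.08% of all tested genes did. The same 6 genes had every KO library below every WT library, against 9.01% of all tested genes. After Benjamini-Hochberg adjustment over all tested genes, 0 of the 46 members passed 0.05, and 2 genes of the table (0.0123%) did. At an unadjusted p under 0.05, 9 of the 46 (19.6%) were lower in KO and 1 (2.17%) higher, where 6.08% and 5.23% of all tested genes were. By DESeq2 5 members passed the adjusted threshold.

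Trim30a (ENSMUSG00000030921, chr7:104409025-104465193, minus strand), known to restrain Toll-like receptor signalling, had 190.1, 253 and 271 CPM in the KO libraries (here and below replicates 1 to 3 in order), against 408, 492 and 309 in the WT libraries. Every KO library was below every WT library, with WT replicate 3 nearest to them. The log2 fold change was -0.76 with a standard error (SE) of 0.20 and an adjusted p of 0.194. Trim30d, its neighbour with the near-identical promoter stretch, had 79.5, 99.9 and 107 CPM in KO and 173, 195 and 118 in WT, with the same order of libraries in each genotype. The log2 difference, -0.76 (SE 0.19), had an adjusted p of 0.184. Trim30c lay lower, at 6.66, 9.87 and 11.7 CPM in KO and 15.8, 17.5 and 12.95 in WT. The KO libraries were again all below the WT libraries, and the log2 fold change was -0.70 (SE 0.22, adjusted p = 0.270).

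Trim34a (ENSMUSG00000056144, chr7:104244457-104262234, plus strand), whose human counterpart is a capsid-binding relative of TRIM5, had 31.5, 36.3 and 42.3 CPM in KO and 64.4, 74.4 and 51.6 in WT. The groups did not overlap. Its mean was 36.7 ± 5.40 CPM in KO and 63.4 ± 11.4 in WT (SD, n = 3 each), which gave a log2 difference of -0.79 (SE 0.16) with an adjusted p of 0.125. Exons of Gm47248 on the opposite strand cover 23.5% of its exon bases. The strand setting of the counting is not given, and reads in such stretches may have been dropped, which would lower its level. Tagln, a smooth muscle marker with 67.9% so covered, had 4.19 to 10.4 CPM. Acta2, another such marker with 0.0% covered, had 684 to 1912. Whether reads were dropped was not tested.

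Trim12c and Trim12a, mouse relatives of TRIM5, differed by less. Trim12c had 66.8, 83.6 and 72.03 CPM in KO and 113, 98.9 and 86.97 in WT, a log2 difference of -0.43 with an SE of 0.13 (adjusted p = 0.268). Trim12a had 45.3, 51.7 and 48.6 CPM in KO and 76.5, 68.9 and 53.3 in WT, for a difference of -0.45 on the log2 scale (SE 0.14, adjusted p = 0.272). In both genes the KO libraries lay below the WT libraries, and WT replicate 3 was the lowest WT library.

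In the remaining 4 cluster genes the genotypes overlapped. Trim30b had 33.05, 52.4 and 38.1 CPM in KO and 62.1, 60.8 and 37.4 in WT (log2 fold change -0.38, SE 0.22, adjusted p = 0.591). Trim5 had 20.4, 19.5 and 14.2 CPM in KO and 26.7, 18.9 and 18.1 in WT (log2 fold change -0.24, SE 0.20, adjusted p = 0.738). Trim6, which makes unanchored ubiquitin chains in interferon signalling, lay at 2.19 to 2.70 CPM in KO and 2.65 to 4.08 in WT, with a log2 fold change of -0.41 (SE 0.27). Trim34b was near the detection limit at 0.653 to 0.803 CPM in KO and 0.424 to 1.79 in WT (log2 fold change -0.56, SE 0.51), and without WT replicate 1 its log2 fold change was 0.01.

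Neighbouring copies share transcript sequence, so reads can be dropped or split between them and single-gene values are uncertain. Of all runs of 50 bases in the transcripts, 56.8% of those of Trim34b and 39.8% of those of Trim34a also occurred in another gene, for both chiefly in each other. The share was 36.3% for Trim5, 33.0% for Trim12c and 10.4% for Trim12a. It was at most 7.5% for the 4 Trim30 genes and 1.5% for Trim6.

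**Figure D1:**
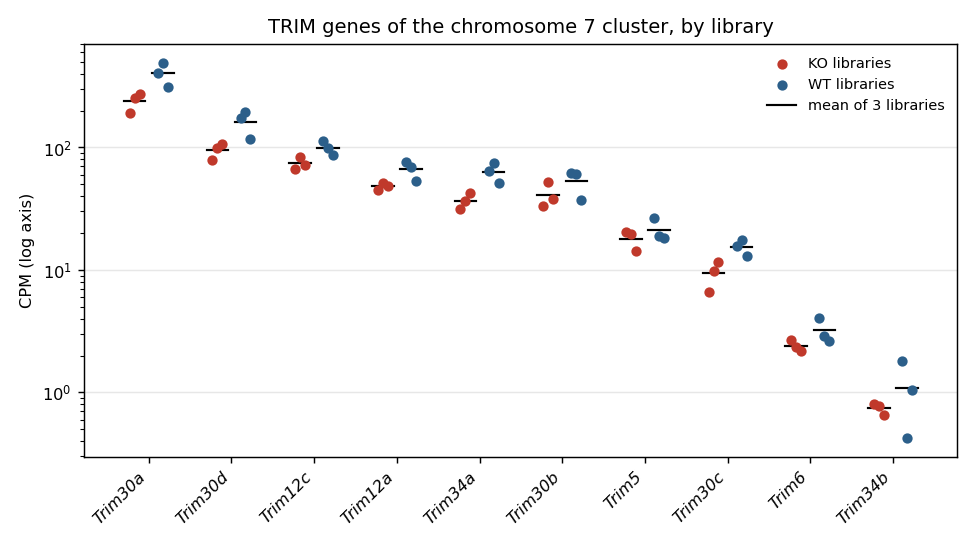
CPM of the 10 chromosome 7 cluster genes on a log axis, with a point for each KO and WT library and a line at the mean of 3 libraries. In Trim30a, Trim30c, Trim30d, Trim34a, Trim12a and Trim12c the KO points all lie below the WT points, and in the other 4 genes the points overlap.

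Single libraries were set side by side across the cluster. WT replicate 3 was the lowest WT library in 9 of the 10 cluster genes and in 6 of the 36 other tested members. KO replicate 1 was the lowest KO library in 7 of the 10 cluster genes and the highest in the other 3, and it was the lowest in 19 of the 36 other tested members. Summed over the cluster, the KO libraries had 477, 609.7 and 608 CPM and the WT libraries had 945, 1029 and 691. Trim30a made up 39.9% to 44.5% of that sum in KO and 43.2% to 47.8% in WT, so its share overlapped between the genotypes. Leaving out each library in turn kept the cluster median between -0.59 and -0.33.

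Since the cluster starts 2.50 to 2.79 Mb from the start of Olfr2 (chr7:106995399-107006072), genes around Olfr2 were set beside it. Of the 462 other genes that are not TRIM members and start within 5 Mb of Olfr2, 75 were tested, and 40 of these had a negative fold change, with a median log2 fold change of -0.01. An unadjusted p under 0.05 was found for 6 of them (8.0%) with KO lower and 3 (4.0%) with KO higher, where 6.08% and 5.23% of all tested genes were lower and higher. Mrvi1, a smooth muscle regulator 3.98 Mb from the start of Olfr2, had 49.7, 35.9 and 43.7 CPM in KO and 18.1, 24.01 and 21.8 in WT (log2 fold change 1.02, adjusted p = 0.102). Gvin1, an interferon-inducible GTPase gene 0.79 Mb from it, had 11.5, 15.1 and 18.8 CPM in KO and 23.7, 25.6 and 19.9 in WT (log2 fold change -0.61, adjusted p = 0.275). Gm4070, 1.05 Mb from it, and Dnhd1, 1.36 Mb from it, had log2 fold changes of -0.70 (adjusted p = 0.224) and 0.73 (adjusted p = 0.248). The lowest of the 75, Gm15133, lies within the span of the cluster (log2 fold change -1.16, adjusted p = 0.380). It had 0.665 to 1.32 CPM in KO and 1.44 to 3.37 in WT. Gm16464, also within that span, had a log2 fold change of 0.01 (adjusted p = 0.999), with groups that overlapped. The 75 neighbours thus had values on both sides of 0.

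TRIM members of that stretch outside the cluster did not share one direction. Trim21, 4.44 Mb away, was lower in KO and is described with the antiviral members. Trim3, 1.37 Mb away, had 65.7, 64.2 and 65.3 CPM in KO and 49.95, 51.7 and 63.4 in WT, with every KO library above every WT library (log2 fold change 0.24, SE 0.12, adjusted p = 0.495). Trim68, 4.32 Mb away, overlapped between the genotypes at 12.4 to 16.01 CPM in KO and 11.4 to 14.1 in WT (log2 fold change 0.15, SE 0.16). Trim66, a testis-enriched chromatin member 2.50 Mb on the other side of Olfr2, had only 10, 5 and 10 counts in KO and 2, 1 and 3 in WT and was not tested.

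**Figure D2:**
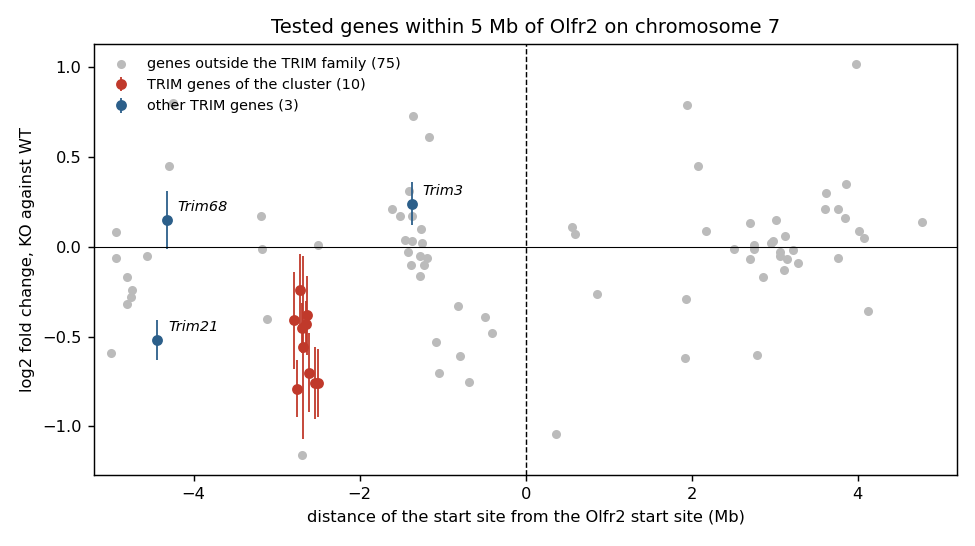
Log2 fold change of KO against WT for the tested genes that start within 5 Mb of Olfr2 on chromosome 7, against the distance of their start from that of Olfr2 in Mb. The 10 cluster genes all lie below 0, while the 75 genes that are not TRIM members and the 3 other TRIM genes lie on both sides of it.

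Outside the cluster the fold changes lay on both sides of 0. Of the 36 tested members there, 19 had a negative fold change, the median log2 fold change was -0.01, and 27 had a log2 fold change within 0.3 of 0. An unadjusted p under 0.05 with KO lower was found for 3 (8.33%), namely Trim14, Trim21 and Trim26, where 6.08% of all tested genes had one. Trim2 was the 1 member with KO higher (2.78%), against 5.23% of all tested genes. Every KO library lay below every WT library in 6 of the 36 (16.7%), against 9.01% of all tested genes, and above it in 4 (11.1%), against 7.83%.

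**Figure D3:**
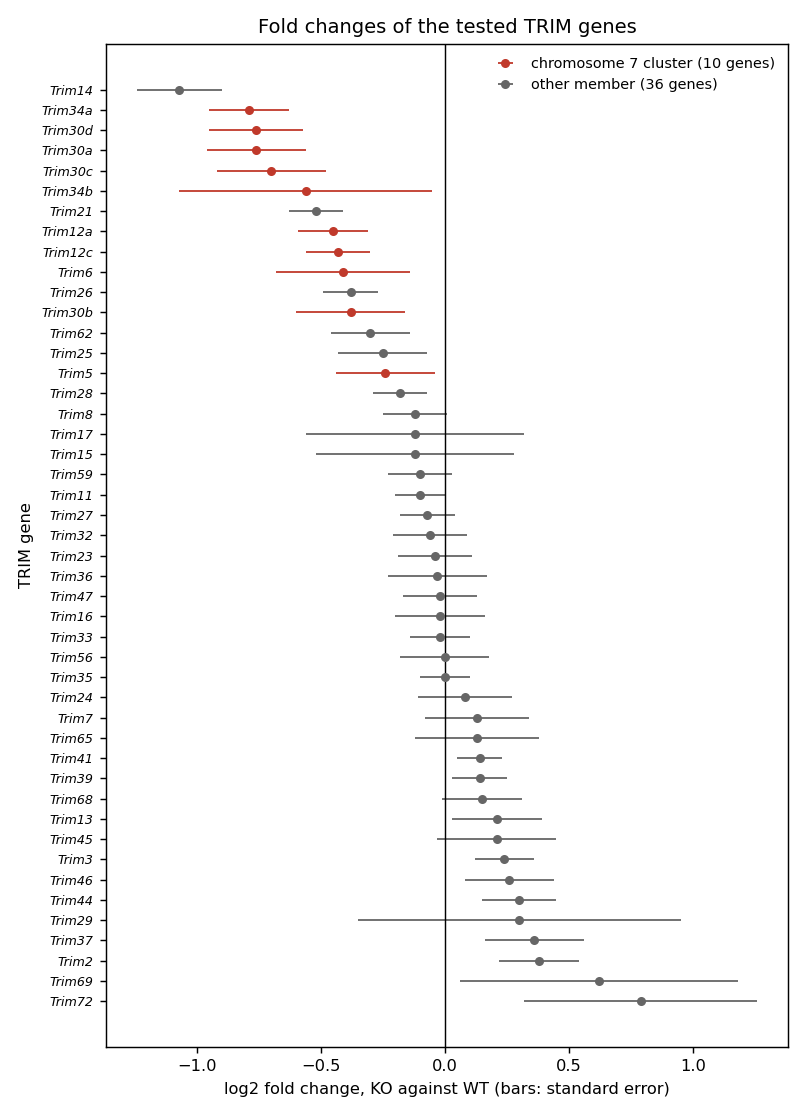
Log2 fold change of KO against WT with its standard error for the 46 tested TRIM genes, sorted by value, with the 10 cluster genes in red and the 36 others in grey. All cluster genes lie to the left of 0, between -0.79 and -0.24, and Trim14 at -1.07 is the lowest of the family.

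A group of 5 members outside the cluster is known from the sensing of foreign nucleic acid or antibody. Of these, 4 had a negative fold change. An unadjusted p under 0.05 with KO lower was found for 3, where 6.08% of all tested genes had one. The group was chosen with earlier results of these data known. It holds all 3 members outside the cluster that were lower at that threshold, so its share may not hold for antiviral members at large. Trim14 (ENSMUSG00000039853, chr4:46493781-46536141, minus strand), a member without a RING domain that acts as an adaptor at the mitochondrial protein Mavs, had 17.8, 21.6 and 24.5 CPM in KO and 38.2, 54.4 and 41.9 in WT. Every KO library was well below every WT library. Its mean was 21.3 ± 3.35 CPM in KO and 44.8 ± 8.50 in WT (SD, n = 3 each), and the log2 fold change of -1.07 (SE 0.17, adjusted p = 0.102) was the lowest of the 46 tested members. Exons of Gm16731, Gm22247 and Nans on the opposite strand cover 38.0% of its exon bases. As for Trim34a, reads there may have been dropped, so its level may be too low.

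Trim21 (ENSMUSG00000030966, chr7:102557921-102565486, minus strand), a cytosolic receptor for the constant part of antibodies, had 47.9, 43.4 and 46.5 CPM in KO and 69.2, 68.03 and 60.5 in WT. The libraries of each genotype lay close together and the groups did not overlap. The log2 difference was -0.52 with an SE of 0.11 (adjusted p = 0.124), and no exon of another gene covers it. Trim26, which acts on interferon regulatory factor 3, had 66.7, 74.2 and 79.2 CPM in KO and 102, 93.2 and 91.9 in WT (log2 fold change -0.38, SE 0.11, adjusted p = 0.223). The KO libraries were again all below the WT libraries.

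The other 2 of that group overlapped between the genotypes. Trim25, which ubiquitinates the RNA sensor RIG-I, had 145, 154 and 207 CPM in KO and 244, 163 and 194 in WT, for a difference of -0.25 on the log2 scale (SE 0.18, adjusted p = 0.699). Trim56, which acts in the pathway of the DNA sensor adaptor STING, had 66.2, 78.8 and 76.5 CPM in KO and 90.7, 53.6 and 76.96 in WT. Its genotype means were both 73.8 CPM.

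The promoter matches can be set beside these values. Among tested genes with the GAAA repeat in a window, 99 of 457 (21.7%) were lower in KO at an unadjusted p under 0.05, and among those without it 622 of 11095 (5.61%). In the cluster these were 5 of 6 genes with the match (all but Trim5) and 1 of 4 without (Trim30c). Several of these 6 promoters share long stretches, so they are not 6 separate cases. Outside the cluster they were 2 of 3 tested members with it (Trim21 and Trim26) and 0 of 22 without it. Trim14 has no entry in the promoter table and is not among these. Trim2, the third of these members with a match, had a higher mean in KO. Trim5 and Trim12c share 63 bases around their match, and only Trim12c had groups that did not overlap.

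Of the 4 chromatin members with a PHD finger and bromodomain, 3 were tested and had log2 fold changes between -0.18 and 0.08; Trim66, with the counts given above, was not tested. Trim28, the corepressor that KRAB zinc finger proteins recruit to silence repeats, had 135, 134 and 133 CPM in KO and 136, 156 and 164 in WT. All KO libraries lay just below the WT libraries, and the log2 fold change was -0.18 (SE 0.11, adjusted p = 0.591). Trim24 and Trim33, its relatives in transcription control, differed by 0.08 (SE 0.19) and -0.02 (SE 0.12) on the log2 scale. Of 5 partners of Trim28 in silencing (Setdb1, Atf7ip, Cbx1, Cbx3 and Cbx5), 0 had an unadjusted p under 0.05 in either direction, and their median log2 fold change was 0.02.

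Members with NHL repeats leaned the other way or overlapped. Trim2, a neuronal ubiquitin ligase that acts on neurofilament, had 18.2, 16.98 and 15.6 CPM in KO and 13.6, 10.6 and 14.9 in WT. The groups did not overlap but came close at KO replicate 3 and WT replicate 3. The log2 fold change was 0.38 (SE 0.16, adjusted p = 0.434). Trim32, mutated in a limb-girdle muscular dystrophy, lay at 18.4 to 20.05 CPM in KO and 16.96 to 21.99 in WT (log2 fold change -0.06, SE 0.15). Trim71, a regulator of stem cells and development, had 0, 5 and 4 counts in KO and 3, 0 and 1 in WT, too few for a test.

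Members of striated muscle followed 1 library. Trim63, the ubiquitin ligase MuRF1 of muscle wasting, had 0, 1 and 22 counts in the KO libraries and 0 in every WT library. Trim55 had 0, 2 and 13 counts in KO and 0, 2 and 0 in WT, and Trim54 had 0, 0 and 10 in KO and 0, 1 and 0 in WT. All 3 were high in KO replicate 3 only. In that library 13 skeletal muscle markers summed to 1484 CPM, against 9.18 to 26.1 CPM in the other 5 libraries, and 0 of the 13 were at 0 in all libraries. Of these markers Tnnc2 had 0 counts in KO replicate 3 and 2 in KO replicate 1. Exons of Ube2c on the opposite strand cover 74.0% of its exon bases. The part of skeletal muscle in the counts of these TRIM genes was not tested. Trim72, a membrane repair protein of striated muscle, had 1.15, 1.33 and 2.98 CPM in KO and 0.652, 1.09 and 1.44 in WT (log2 fold change 0.79, SE 0.47), and it too was highest in KO replicate 3.

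Members known from nerve, blood and epithelium are given next. Of the microtubule-binding members with a COS box, Trim46, which bundles microtubules in axons, had 15.4 to 16.9 CPM in KO and 10.3 to 14.98 in WT, with every KO library above every WT library (log2 fold change 0.26, SE 0.18, adjusted p = 0.648). Trim36 had 8.09 to 9.77 CPM in KO and 7.17 to 10.9 in WT. Trim9, a brain member, had 3 to 5 counts in each library, and Trim67 had 9, 15 and 8 counts in KO and 2, 0 and 10 in WT. Summed CPM of 5 neuronal markers was 22.7 to 29.6 in KO and 23.9 to 39.5 in WT. Trim10 and Trim58 of the erythroid line had at most 3 counts in any library. Trim29, an epithelial member, had 0.689 to 1.07 CPM in KO and 0.109 to 1.27 in WT.

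Several highly expressed members had near-equal means. Trim35 had 119.8, 111 and 119 CPM in KO and 121, 108 and 122 in WT, and its genotype means were both 117 CPM. Trim47 had means of 64.7 ± 5.01 CPM in KO and 65.4 ± 13.1 in WT, and Trim8, which acts in cytokine signalling, of 76.8 ± 6.06 and 83.4 ± 11.4 (SD, n = 3 each). Summed over the 58 members outside the cluster, the KO libraries had 1385, 1440.5 and 1503 CPM and the WT libraries had 1556, 1452 and 1542. These sums overlapped between the genotypes.

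**Figure D4:**
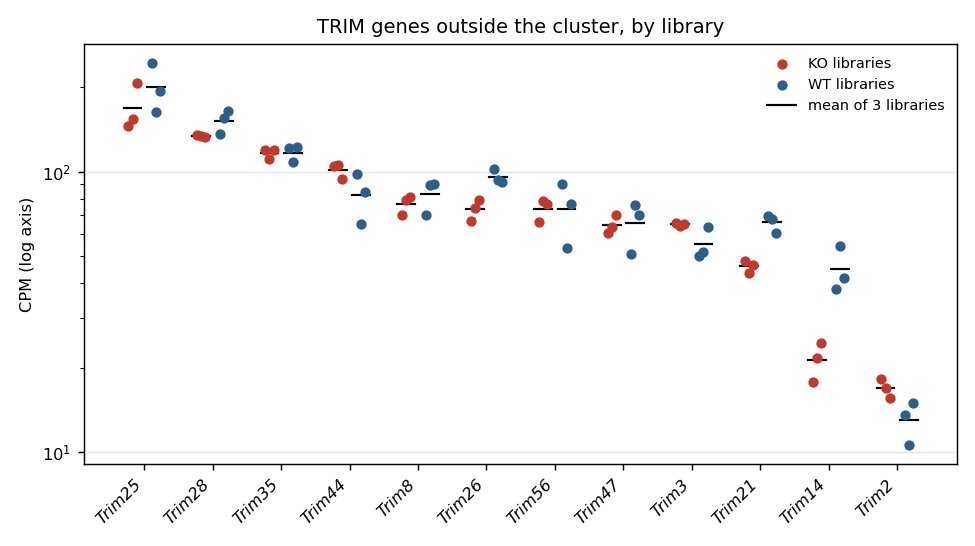
CPM of 12 TRIM genes outside the cluster on a log axis, with a point for each KO and WT library and a line at the mean of 3 libraries. The KO and WT points stand apart most in Trim14, and in Trim35, Trim56 and Trim47 they overlap around nearly equal means.

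Genes that work with the antiviral members were read from a list of 17 genes of RNA and DNA sensing. Of these, 10 (58.8%) had an unadjusted p under 0.05 with KO lower and 0 with KO higher, where 6.08% and 5.23% of all tested genes did, and the median log2 fold change was -0.33. Dhx58, a regulator among the RIG-I-like receptors, had 61.4, 66.8 and 71.9 CPM in KO and 142, 177 and 106 in WT (log2 fold change -1.08, adjusted p = 0.102). Zbp1, a sensor of Z-form nucleic acid, had 149, 153 and 232 CPM in KO and 355, 427 and 293 in WT (log2 fold change -1.01, adjusted p = 0.124). Ifih1, the sensor MDA5, and Stat2, which carries the interferon signal, had log2 fold changes of -0.87 (adjusted p = 0.126) and -0.84 (adjusted p = 0.146). The 7 others without such a p were the kinases Tbk1 and Ikbke, the adaptors Mavs, Traf3, Traf6 and Tank, and the factor Irf3.

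TRIM genes that carry other names were not alike. Pml, which builds nuclear bodies, had 77.5, 98.5 and 88.7 CPM in KO and 143, 204 and 146 in WT (log2 fold change -0.90, adjusted p = 0.103). Mefv, the inflammasome protein pyrin, had a log2 fold change of -0.19 (adjusted p = 0.769), with groups that overlapped. Mid1 and Mid2, which bind microtubules, differed between the genotypes by 0.00 (SE 0.35) and 0.35 (SE 0.15) on the log2 scale.

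Interferon-stimulated genes and several leukocyte markers had lower summed levels in KO, as the cluster had. The 20 interferon-stimulated genes listed summed to 2623, 2709.8 and 3532 CPM in the KO libraries and 5995, 7474 and 4225 in the WT libraries. All 20 had an unadjusted p under 0.05 with KO lower, against 6.08% of all tested genes, with a median log2 fold change of -0.96. In 18 of the 20 every KO library lay below every WT library, against 9.01% of all tested genes. WT replicate 3 was the lowest WT library and WT replicate 2 the highest, as in the summed cluster. This list shares some genes with that of sensing genes.

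Leukocyte markers were compared in the same libraries. Summed CPM of 5 general leukocyte markers was 1895 to 2122 in KO and 2376 to 2969.7 in WT. For 6 T cell markers it was 106 to 111 in KO and 155 to 195 in WT, and for 4 natural killer cell markers 58.9 to 83.5 and 113 to 175. Neither set overlapped between the genotypes. Macrophage markers (5 genes) summed to 2215 to 2773 CPM in KO and 2417 to 3517 in WT, and B cell markers (4 genes) to 26.3 to 36.1 and 23.3 to 36.98, both with overlap. The macrophage markers did not share one direction, and 4 of the 5 had a negative fold change. Mrc1 was higher in KO (log2 fold change 0.38, adjusted p = 0.378). It was the 1 of the 5 with an unadjusted p under 0.05, where 5.23% of all tested genes were higher. No marker of these sets was at 0 in all libraries. The part of these cells in the lower cluster values was not tested.

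Markers of the vessel wall and of surrounding tissue also differed. Smooth muscle markers (7 genes), which define the labelled tissue, were present in every library and summed to 1586 to 2493 CPM in KO and 924 to 1391 in WT. White adipocyte markers (7 genes) summed to 761 to 1456 CPM in KO and 174 to 706 in WT, with WT replicate 3 highest in WT. Fabp4 alone had 474 to 997 CPM in KO and 129 to 418 in WT. Only 3 of the 7 had every KO library above every WT library, and Adipoq, Plin1, Cidec and Retn overlapped. Erythroid markers (5 genes) summed to 50.7 to 213 CPM in KO and 29.1 to 259 in WT. No marker of these 3 sets was at 0 in all libraries, and their part in the TRIM values was not tested.

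**Figure D5:**
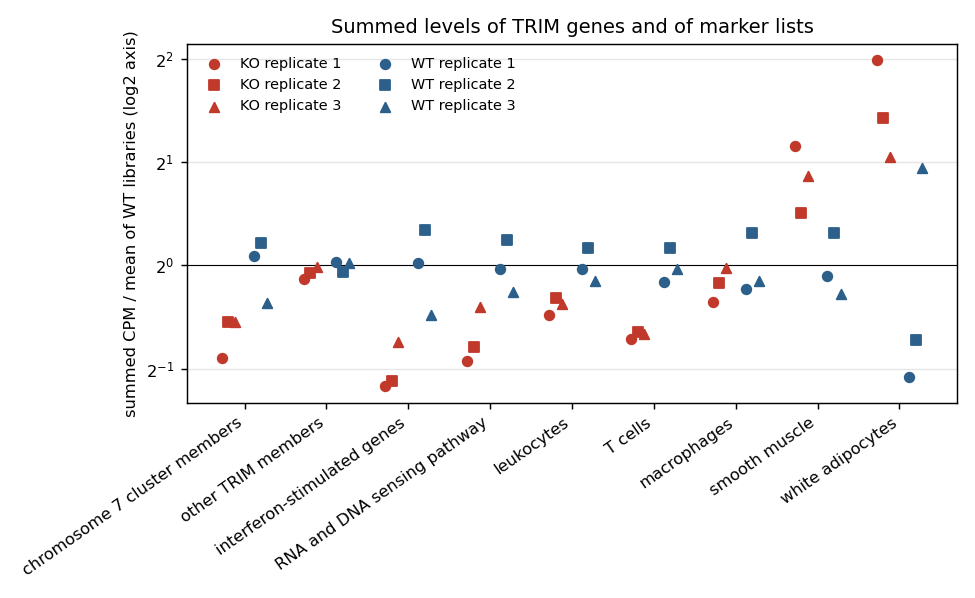
Summed CPM in each library divided by the mean of the WT libraries, on a log2 axis, for TRIM cluster genes, other TRIM genes, response genes and cell type marker lists. The KO points lie below all WT points for the cluster, the interferon-stimulated genes, the sensing pathway, leukocytes and T cells, and above all WT points for smooth muscle and white adipocytes.

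A count model with another estimate of the spread called some of these genes. DESeq2 called 451 of the 15592 genes to which it gave an adjusted p (2.89%), and 5 members were among them: Trim14, Trim21, Trim30a, Trim30d and Trim34a, all lower in KO. Trim14 had an adjusted p of 1.43e-05 by DESeq2, and over all alternatives its adjusted p ranged from 1.43e-05 to 0.273. Trim34a had 0.00153 (range 0.00153 to 0.340), Trim30a 0.0056 (range 0.00548 to 0.455), Trim30d 0.00727 (range 0.00354 to 0.455) and Trim21 0.0079 (range 0.0079 to 0.316). Without WT replicate 3, the WT library with the lowest cluster values, edgeR called Trim14, Trim30d and Trim34a and 155 genes in all.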

How the data were processed

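RNA from abdominal aorta was selected with poly-T beads and primed with random hexamers, per the labels' protocols. The deposited table holds raw whole-number counts per gene for 54532 genes. HISAT2 2.0.5, featureCounts 1.5.0-p3 and GRCm38 are named per the submitters' processing notes, while the sources used here give neither the strand setting nor the treatment of shared reads. In edgeR 4.0.16 (R 4.3.3), filterByExpr kept 16237 genes, libraries were scaled by TMM, and KO was tested against WT by the quasi-likelihood test, with p-values adjusted over the whole tested set by Benjamini-Hochberg (threshold 0.05). The test was tried on simulated counts drawn independently for each gene. Beyond library size these hold no shift shared by the genes of a library, so the trial cannot show how such shifts affect the test. Positions and exon overlap came from GENCODE mouse release 21 (GRCm38), and transcripts were compared by shared runs of 50 bases. Members and lists were chosen with earlier results of these data known, so lists are described by counts and medians. Named were all cluster genes, other members with an unadjusted p under 0.05, the 6 highest per kb, members chosen by role, and at most 4 genes per pathway or neighbour list. Other genes were named after their values were seen: Trim68, Gm15133, Gm16464, single marker genes and the remaining genes of the sensing list. Alternatives were other scalings, no filter, a robust fit, DESeq2 1.42.0, limma-voom (limma 3.58.1), a replicate block, members with over 20% exon overlap left out, and each library left out. Figures were drawn with matplotlib 3.10.9.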

Additional observations from a re-analysis of the deposited data

How the results depend on the processing

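The 9 members lower in KO at an unadjusted p under 0.05 kept that under 14 of the 15 alternatives. With members of over 20% exon overlap left out, 42 were tested and 7 of the 9 remained, since Trim14 and Trim34a were removed. Members called at the adjusted threshold numbered 0 by edgeR, 5 with no filter on low counts (which called 644 genes in all) and 5 by DESeq2, and 0 to 3 with each library left out. Members higher in KO numbered 1 by edgeR, 0 with DESeq2 size factors, with the replicate block and by DESeq2, 2 by library size alone, 4 with no filter, and 0 to 2 with each library left out. The median of the other members was 0.06 with no filter. Same-numbered libraries deviated from their genotype means with correlations of -0.101, -0.062 and -0.12. With 3 libraries per genotype, these values cannot decide whether the numbers pair libraries. With the replicate block 0 members were called and 9 were lower. Of 616 values of named genes under alternatives 38 changed sign, in 12 genes, among them Trim34b at -0.56 and Trim29 at 0.30 with all libraries. Trim35 was 0.01 with upper quartile factors and 0.03 by library size alone, and Trim47 was 0.02 by library size alone and 0.00 with the replicate block and limma-voom. Trim33 was 0.02 and Trim36 0.01 by library size alone, and Trim56 and Mid1 were 0.00 with DESeq2 size factors and by DESeq2. With each library left out, log2 fold changes ranged from -0.93 to 0.01 for Trim34b, -0.06 to 0.04 for Trim35, -0.17 to 0.10 for Trim47, -0.18 to 0.18 for Trim56, -0.12 to 0.29 for Trim24, -0.11 to 0.05 for Trim33, -0.18 to 0.00 for Trim32, -0.17 to 0.13 for Trim36, -0.22 to 0.92 for Trim29, -0.27 to 0.41 for Mid1, -0.16 to 0.00 for Cbx3 and -0.20 to 0.06 for Atf7ip. The cause was not tested.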
